A study of Homo sapiens with 3 samples.

Results

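FOXM1 peaks that 2 ChIP libraries of Huh7 cells shared, and that lay at the ends of noncoding genes and of no protein-coding gene, numbered 400 of the 5716 shared peaks. That was 7.0% of them (exact 95% interval 6.35% to 7.69%). They are called noncoding-end peaks here. Huh7 is an established human hepatocellular carcinoma line, grown here without treatment. In the series, 2 libraries (replicates 2 and 3) hold chromatin pulled down with G-5, an antibody against FOXM1, and 1 input library was made without antibody and was not analysed here on its own. Whether the ChIP libraries stem from separate cultures is not stated in the labels, and there was no second condition, so every value below describes these peak lists and no difference between conditions was tested.

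The members were chosen from the peak calls of both libraries and from gene positions. A replicate 2 peak on chromosomes 1 to 22 or X was kept where it overlapped a replicate 3 peak by at least 1 bp, its summit lay within 1 kb of an end of a gene that RefSeq GRCh38.p14 does not class as protein-coding, and the summit lay more than 1 kb from every protein-coding gene end. Of the other shared peaks, 3973 lay at protein-coding ends and 1343 away from all gene ends. The 2 lists held 8230 peaks in replicate 2 and 11457 in replicate 3, cut by the authors at a q of about 0.05, so a gene without a peak only failed to pass that threshold.

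FOXM1, of the forkhead family of transcription factors, is known as an activator of late cell cycle genes. It can bind the forkhead motif directly and is also known to reach cell cycle promoters through partner proteins that bind the CHR element. Noncoding genes use several kinds of transcription. Long noncoding RNAs (lncRNAs), most microRNA host genes and transcribed pseudogenes are read by RNA polymerase II from promoters like those of protein-coding genes, while tRNA and U6 genes are read by RNA polymerase III and ribosomal RNA genes by RNA polymerase I.

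Promoter sequences are shown for 7 genes that carried a noncoding-end peak: 3 microRNA host genes, 3 lncRNA genes from the list of cancer-associated lncRNAs and the antisense lncRNA with the strongest lncRNA peak. Each is the RefSeq GRCh38.p14 window of 300 bases, 250 before to 50 after the annotated start, written on the strand of the gene. Capitals mark matches to the motifs searched, on either strand, which in these windows were the GC box GGGCGG, the CCAAT box, the E-box CACGTG and the ETS motif CCGGAAG. The windows run chr19:13842869-13843168 on the minus strand for MIR23AHG, chr13:91347437-91347736 on the plus strand for MIR17HG and chr9:94166008-94166307 on the plus strand for MIRLET7A1HG. Those of DANCR (chr4:52712144-52712443, plus), NORAD (chr20:36050911-36051210, minus), HEIH (chr5:180831569-180831868, minus) and MELTF-AS1 (chr3:197002656-197002955, plus) follow.
MIR23AHG: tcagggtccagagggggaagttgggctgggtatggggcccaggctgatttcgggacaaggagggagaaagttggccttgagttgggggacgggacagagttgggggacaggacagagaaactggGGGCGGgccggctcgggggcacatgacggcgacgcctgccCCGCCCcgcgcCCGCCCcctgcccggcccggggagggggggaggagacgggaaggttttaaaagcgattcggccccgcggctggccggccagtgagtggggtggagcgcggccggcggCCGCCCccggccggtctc
MIR17HG: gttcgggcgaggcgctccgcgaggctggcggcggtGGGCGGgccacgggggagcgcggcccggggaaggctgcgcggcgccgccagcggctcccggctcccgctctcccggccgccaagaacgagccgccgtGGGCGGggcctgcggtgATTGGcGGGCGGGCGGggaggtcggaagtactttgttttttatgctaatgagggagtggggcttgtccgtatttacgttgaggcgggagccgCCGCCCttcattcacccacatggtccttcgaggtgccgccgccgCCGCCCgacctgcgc
MIRLET7A1HG: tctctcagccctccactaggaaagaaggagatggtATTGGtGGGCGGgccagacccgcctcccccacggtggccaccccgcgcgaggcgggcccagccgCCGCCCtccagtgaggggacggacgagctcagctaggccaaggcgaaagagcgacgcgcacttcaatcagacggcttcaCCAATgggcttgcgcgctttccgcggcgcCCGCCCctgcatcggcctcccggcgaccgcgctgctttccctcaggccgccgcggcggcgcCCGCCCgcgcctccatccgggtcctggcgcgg
DANCR: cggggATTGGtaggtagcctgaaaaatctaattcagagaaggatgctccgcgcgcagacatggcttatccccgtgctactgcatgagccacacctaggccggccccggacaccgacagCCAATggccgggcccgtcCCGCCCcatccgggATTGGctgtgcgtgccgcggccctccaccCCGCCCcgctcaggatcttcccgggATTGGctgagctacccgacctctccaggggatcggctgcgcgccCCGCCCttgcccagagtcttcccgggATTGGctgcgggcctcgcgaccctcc
NORAD: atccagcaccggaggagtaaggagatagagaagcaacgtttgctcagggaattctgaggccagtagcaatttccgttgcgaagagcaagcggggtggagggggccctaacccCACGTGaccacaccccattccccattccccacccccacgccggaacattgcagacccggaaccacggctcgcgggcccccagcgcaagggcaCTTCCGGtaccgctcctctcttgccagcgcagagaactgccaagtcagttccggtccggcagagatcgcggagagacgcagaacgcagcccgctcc
HEIH: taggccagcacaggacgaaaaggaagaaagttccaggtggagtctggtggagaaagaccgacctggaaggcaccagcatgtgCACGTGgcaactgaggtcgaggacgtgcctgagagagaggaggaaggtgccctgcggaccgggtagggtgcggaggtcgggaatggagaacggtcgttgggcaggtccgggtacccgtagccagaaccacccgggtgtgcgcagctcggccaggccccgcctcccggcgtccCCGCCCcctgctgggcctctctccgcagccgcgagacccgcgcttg
MELTF-AS1: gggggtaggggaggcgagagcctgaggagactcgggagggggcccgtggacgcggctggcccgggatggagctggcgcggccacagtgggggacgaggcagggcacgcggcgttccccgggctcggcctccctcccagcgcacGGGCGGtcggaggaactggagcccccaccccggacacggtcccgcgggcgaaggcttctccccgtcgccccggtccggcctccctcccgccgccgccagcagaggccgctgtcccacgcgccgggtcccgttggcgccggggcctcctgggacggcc

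All 7 windows were rich in G and C, with 63.0% to 79.0% of their bases. MIR17HG had 7 motif matches, 6 of them GC boxes and 1 a CCAAT box, and DANCR had 8, 5 of them CCAAT boxes and 3 GC boxes. No forkhead match (TGTTTAC or TGTTTGC) and no CHR match (TTTGAA or TTCGAA) stood in any of the 7, which says only that these letters are not in these windows. Windows not shown here did hold the CHR letters TTTGAA, at 15 of all 253 lncRNA promoters with a noncoding-end peak. Among them were a window of DLEU2 and those of DLEU1, MIRLET7IHG and MIR130AHG. The member summit lay 35 bp after the start in MIRLET7A1HG and 28 bp after it in HEIH, inside the windows. In the others it lay 185 bp (DANCR) to 377 bp (MIR17HG) after the start, past the end of the windows.

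Mature microRNA sequences are shown for genes at noncoding-end peaks and for microRNAs inside a host gene whose end carried one, because several of them share a seed (bases 2 to 8, in capitals), the part that pairs with target messenger RNAs. They come from RefSeq, GRCh38.p14. The 4 let-7 forms below share 1 seed, as do miR-17 with miR-20a, miR-92a with miR-92b, miR-132 with miR-212, and miR-15a with miR-16. miR-23a and miR-34a stand alone.
hsa-let-7a-5p: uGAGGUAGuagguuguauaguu
hsa-let-7f-5p: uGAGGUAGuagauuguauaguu
hsa-let-7d-5p: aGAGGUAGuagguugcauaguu
hsa-let-7i-5p: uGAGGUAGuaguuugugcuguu
hsa-miR-17-5p: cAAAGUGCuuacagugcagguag
hsa-miR-20a-5p: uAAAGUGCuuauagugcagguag
hsa-miR-92a-3p: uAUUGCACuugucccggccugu
hsa-miR-92b-3p: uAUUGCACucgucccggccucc
hsa-miR-132-3p: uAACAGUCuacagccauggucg
hsa-miR-212-3p: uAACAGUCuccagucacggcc
hsa-miR-15a-5p: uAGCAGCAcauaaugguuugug
hsa-miR-16-5p: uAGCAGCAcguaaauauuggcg
hsa-miR-23a-3p: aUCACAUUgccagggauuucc
hsa-miR-34a-5p: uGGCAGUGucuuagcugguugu

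Most noncoding-end peaks stood a few-fold above their local background. Fold enrichment, the authors' own ratio of ChIP to local background at the summit, ran over 1.46, 3.76 and 7.09 (lowest, median and highest) in replicate 2 and over 1.45, 3.96 and 8.55 in replicate 3. The number of fragments at each summit, worked back from the deposited values, had a median of 27 in each library. Median local background was 5.04 in replicate 2 and 5.00 in replicate 3. Here and below counts are unscaled, while background goes with counts multiplied by 0.848 in replicate 2 and 0.869 in replicate 3. A count over its background is therefore not the fold. The −log10 q had medians of 4.17 and 4.61. Both folds reached 5 in 14 of the 400 peaks and reached 4 in 106, and both −log10 q values reached 5 in 81.

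These heights were close to those of the other shared peaks. The median fold in replicate 2 was 3.76 for noncoding-end peaks, 3.84 for peaks at protein-coding ends and 3.82 for peaks away from gene ends. In replicate 3 the medians were 3.96, 3.99 and 3.93 in the same order. Noncoding-end peaks had a median width of 230 bp in replicate 2, against 266 bp at protein-coding ends and 251 bp away from gene ends. All peaks in these sets passed the same calling threshold, and no difference between the sets was tested.

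The rule asked for overlapping peaks, so the 2 libraries placed most noncoding-end peaks at the same gene largely by construction. The next 2 shares therefore describe the set and are no separate measure of agreement. The replicate 3 summit lay within 1 kb of an end of the same noncoding gene for 385 of the 400 (96.2%, exact 95% interval 93.9% to 97.9%). It met the whole rule for 373 (93.2%) and lay within 1 kb of a protein-coding end for 13. The 400 peaks overlapped 388 distinct replicate 3 peaks, and 24 of them shared their partner with another member. Summits were a median of 91.0 bp apart and within 100 bp for 213 peaks (53.2%), against 49.8% at protein-coding ends and 54.4% away from gene ends. Across the 400 peaks the Spearman correlation between libraries was 0.478 for fold, 0.754 for fragment counts and 0.856 for local background. The peaks share a genome position in both libraries, and if both lists were called against the same control they also share that background. Fold was higher in replicate 3 for 233 of the 400.

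**Figure D1:**
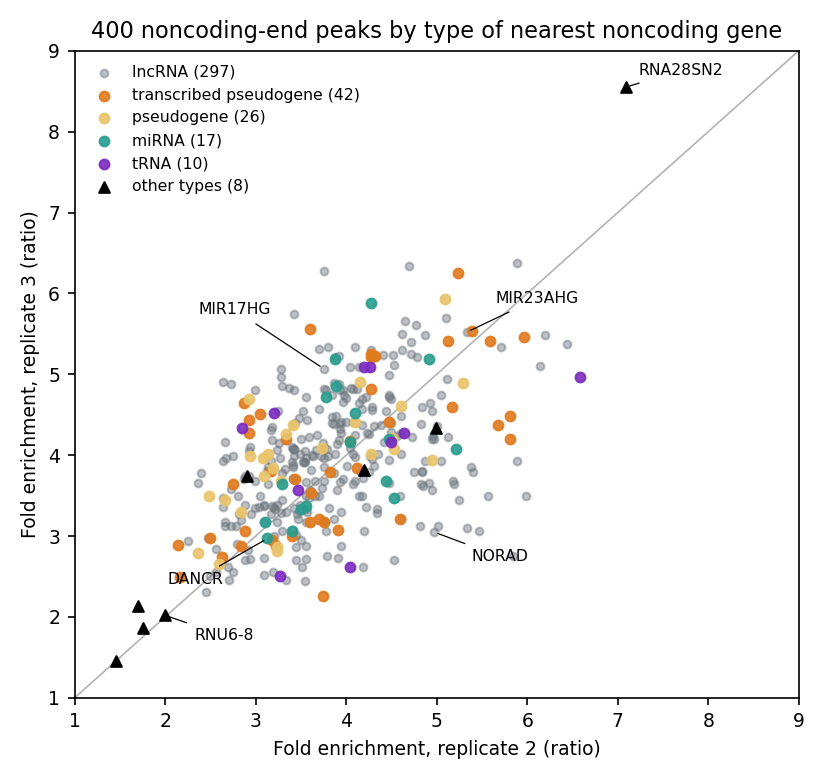
Fold enrichment of each of the 400 noncoding-end peaks in replicate 2 (horizontal axis, ratio) and replicate 3 (vertical axis, ratio), coloured by the type of the nearest noncoding gene; the grey line marks equal fold. RNA28SN2 stands at 7.09 and 8.55, above all other members in both libraries, while NORAD lies below the line at 4.97 and 3.05 and MIR17HG above it at 3.75 and 5.07.

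The 400 peaks lay at 426 noncoding genes, in 472 pairs of a peak and a gene. That was 1.09% of the 39124 noncoding genes on these chromosomes. Any shared peak, including those that also lay at a protein-coding end, stood within 1 kb of 1275 noncoding genes (3.26%). Among protein-coding genes 3829 of 19974 (19.2%) had a shared peak within 1 kb of an end. Most members, 338, lay at 1 noncoding gene, and 62 lay at 2 or more. Of the 426 genes, 151 carry only a provisional LOC number and 37 a LINC name, so little is recorded of what their RNAs do.

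lncRNA genes made up most of the set. An lncRNA end stood within 1 kb of 316 of the 400 peaks (79.0%), and an lncRNA was the nearest noncoding gene for 297. In all, 303 of 18177 lncRNA genes had a noncoding-end peak (1.67%, exact 95% interval 1.49% to 1.86%). Transcribed pseudogenes, gene copies that are still read into RNA, had 45 of 1246 (3.61%, interval 2.65% to 4.80%), while pseudogenes without recorded transcription had 29 of 15212 (0.191%, interval 0.128% to 0.274%). For tRNA genes the count was 14 of 443 (3.16%, interval 1.74% to 5.25%) and for microRNA genes 24 of 1911 (1.26%, interval 0.806% to 1.86%). The intervals of the transcribed and the other pseudogenes do not overlap. Genes that neighbour each other can share a peak, so the intervals cover counting error only.

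**Figure D2:**
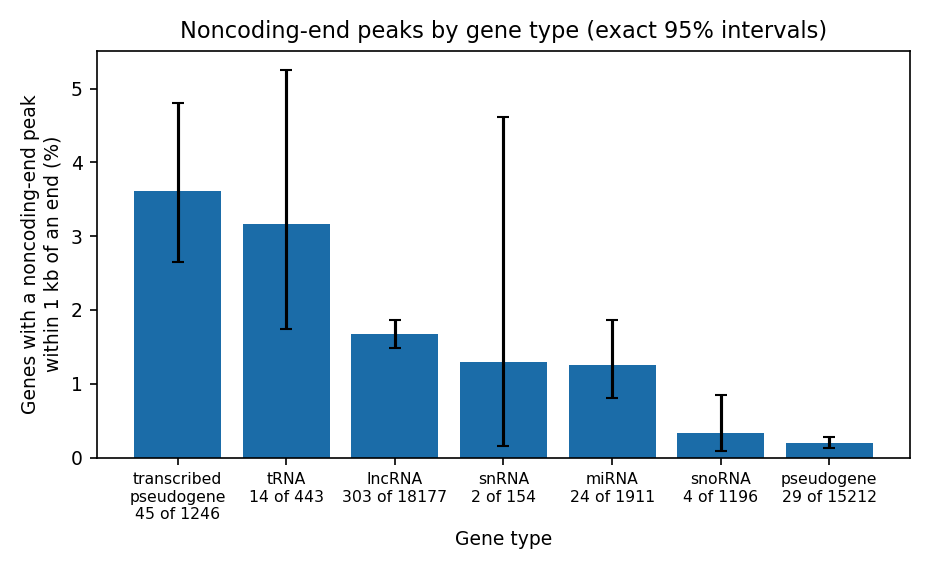
Share of the genes of each noncoding type with a noncoding-end peak within 1 kb of an end (bars, percent; error bars, exact 95% intervals for counting error; counts under each bar). Transcribed pseudogenes stand at 3.61% and pseudogenes without recorded transcription at 0.191%.

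Other classes held few members in number. Members stood at 4 of 1196 snoRNA genes (0.334%), 2 of 154 snRNA genes (1.3%) and 3 of 49 rRNA genes (6.12%, exact 95% interval 1.28% to 16.9%). The 3 rRNA genes stood at 2 peaks with summits 6685 bp apart, so that interval does not rest on separate loci. They also stood at 1 of 19 genes classed as antisense RNA (TRAF3IP2-AS1, 5.26%, interval 0.133% to 26%) and 1 of 33 classed as miscellaneous RNA (MROH5, 3.03%, interval 0.0767% to 15.8%). The share over all noncoding genes was 1.09%, within the intervals of the antisense and miscellaneous classes. None of the 248 immunoglobulin and T cell receptor V segments and none of the 98 J segments had one. TRAF3IP2-AS1 and MROH5 are named as the 1 member gene of their class.

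The summits gathered at the starts of lncRNA genes. Strand is given for 269 of the 334 pairs of a peak and an lncRNA gene, and in 254 of these the summit lay within 1 kb of the start (94.4%, exact 95% interval 91.0% to 96.8%). For lncRNA genes over 2 kb long, whose ends can be told apart, 221 of 233 pairs were at the start (94.8%). Protein-coding genes over 2 kb with a shared peak had 3347 of 3545 pairs at the start (94.4%). The median position was 70 bp before the lncRNA start, with 139 summits before it and 115 after it, and 103 summits lay within 250 bp. Of the other 15 pairs, the summit lay within 1 kb of the finish alone.

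**Figure D3:**
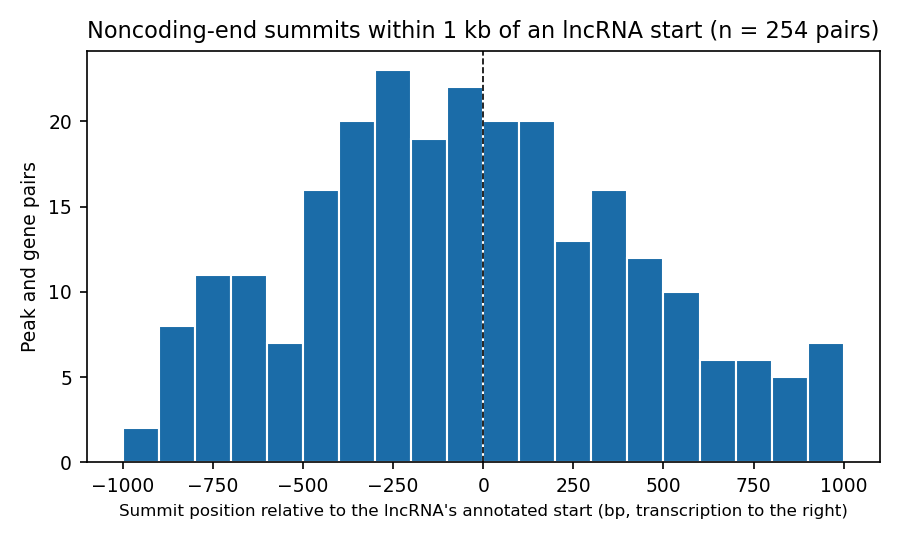
Position of the replicate 2 summit relative to the annotated start of the lncRNA gene (horizontal axis, bp, transcription to the right) for the 254 pairs within 1 kb of a start; bars count pairs in bins of 100 bp. Of these summits 139 lie before the start and 115 after it, with a median of -70.0 bp.

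lncRNA promoters with a noncoding-end peak were mostly rich in CpG, a property the choice of members did not use. Only windows with a start within 1 kb of a member summit were counted, 253 for 221 of the 303 lncRNA genes, since some genes have several starts. Their median GC content was 71.3%, against 47.3% over the 10474 lncRNA promoters that, like the members, lay over 1 kb from protein-coding ends. Their median ratio of observed to expected CpG was 0.862, against 0.237. Both a GC content of at least 55% and a CpG ratio of at least 0.65 were met by 198 of the 253 (78.3%, exact 95% interval 72.7% to 83.2%). The share was 10.2% over those 10474 and 21.3% over all 12829 lncRNA promoters. At protein-coding promoters with a shared peak it was 88.3%, and over all protein-coding promoters 54.0%. Windows of the same gene can overlap, and the exact intervals given for promoters count each window as separate, so they cover counting error only.

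Seen from the promoters, noncoding-end peaks stood at 227 of those 10474 lncRNA promoters (2.17%); the rest of the 253 started within 1 kb of a protein-coding end. Among the 1073 CpG-rich ones the count was 175 (16.3%, exact 95% interval 14.1% to 18.7%), and among the 9401 others it was 52 (0.553%, interval 0.413% to 0.725%). Peak height moved little with promoter type: the 174 peaks at CpG-rich lncRNA promoters had median folds of 3.79 in replicate 2 and 3.96 in replicate 3, and the 50 at other lncRNA promoters had 3.65 and 3.79. Base composition of DNA can also affect how many fragments are recovered and sequenced, and its part in these shares was not tested.

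**Figure D4:**
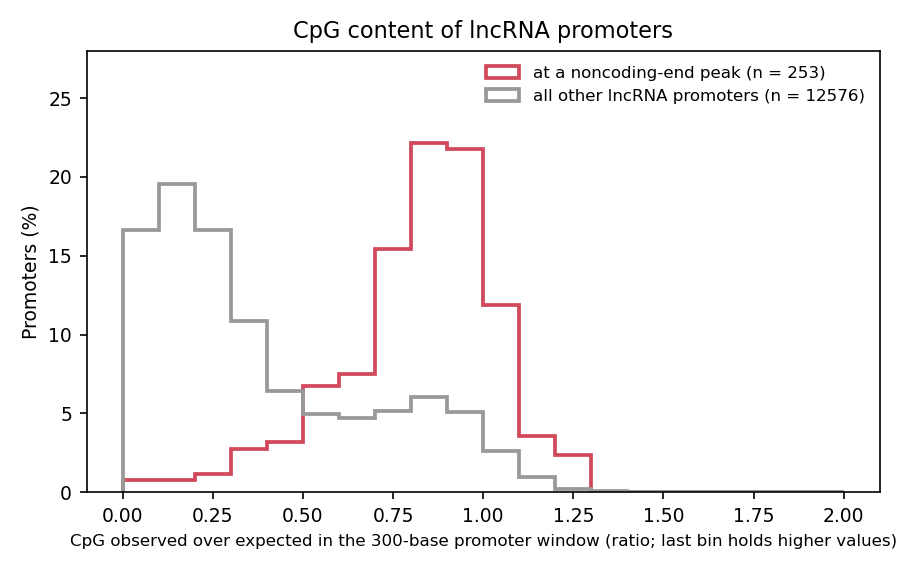
Ratio of observed to expected CpG (horizontal axis) in 300-base promoter windows of lncRNA genes; lines give the percent of promoters in each bin of 0.1, red for the 253 promoters at a noncoding-end peak and grey for all other lncRNA promoters. The red line peaks near its median of 0.862, while most grey promoters lie below 0.5.

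Motif shares were counted in the same windows. The GC box GGGCGG, the binding site of SP1-type factors, stood in 74.3% of the 253 promoters at noncoding-end peaks and in 25.6% of all lncRNA promoters. Among CpG-rich windows alone it stood in 83.3% of 198 promoters with a noncoding-end peak and in 72.5% of the 1073 that lay over 1 kb from protein-coding ends. The forkhead letters TGTTTAC stood in 3 of the 253 (1.19%), against 4.41% of all lncRNA promoters, and TGTTTGC in 3 as well, against 4.72%. Within CpG-rich windows the shares for TGTTTAC were 1.52% and 1.86%, and for TGTTTGC 1.01% and 1.96%.

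The CHR letters TTTGAA stood in 5.93% of promoters with a noncoding-end peak and in 19.9% of all lncRNA promoters, and TTCGAA in 0.791% and 1.29%. Within CpG-rich windows TTTGAA stood in 4.55% and 6.24%. CCAAT, the site of the NF-Y factor, stood in 20.9% against 34.4%, the CRE TGACGTCA in 3.95% against 1.15%, and the E-box CACGTG in 10.7% against 5.41%. The ETS motif CCGGAAG stood in 10.3% against 5.85%, the NRF1 letters GCGCATGC in 3.16% against 1.88%, the AP-1 site TGAGTCA in 3.16% against 6.49%, and the polymerase III box GTTCGANTC in 0.395% against 0.195%. Within CpG-rich windows alone, several of these gaps were smaller or turned round: CCAAT stood in 19.7% against 23.5%, the CRE in 4.55% against 2.89% and the E-box in 12.1% against 8.95%. For the ETS motif the shares there were 11.1% against 14.4%, for NRF1 4.04% against 6.24% and for AP-1 2.02% against 1.86%. Both strands were searched, and the CRE, the E-box and TTCGAA read the same on both. The polymerase III box holds TTCGAA where its N is an A, and the 1 window with that box was also 1 of the 2 with TTCGAA. A window ends 50 bases after the start, and only 76 of the 253 held the summit itself, so a motif elsewhere under a peak was not seen.

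Among the 25 strongest members (ranked on whichever of their 2 folds was lower), 15 were at lncRNA genes, 5 at transcribed pseudogenes, 2 at other pseudogenes, and 1 each at an rRNA, a tRNA and a microRNA gene. Their folds ran between 4.69 and 7.09 in replicate 2 and between 4.75 and 8.55 in replicate 3. Median local background was 3.78 in replicate 2 and 3.70 in replicate 3, below the 5.04 and 5.00 of all members. That is in part given by the ranking, since a low background raises the fold. Of the 25, 9 lay inside a protein-coding gene.

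**Figure D5:**
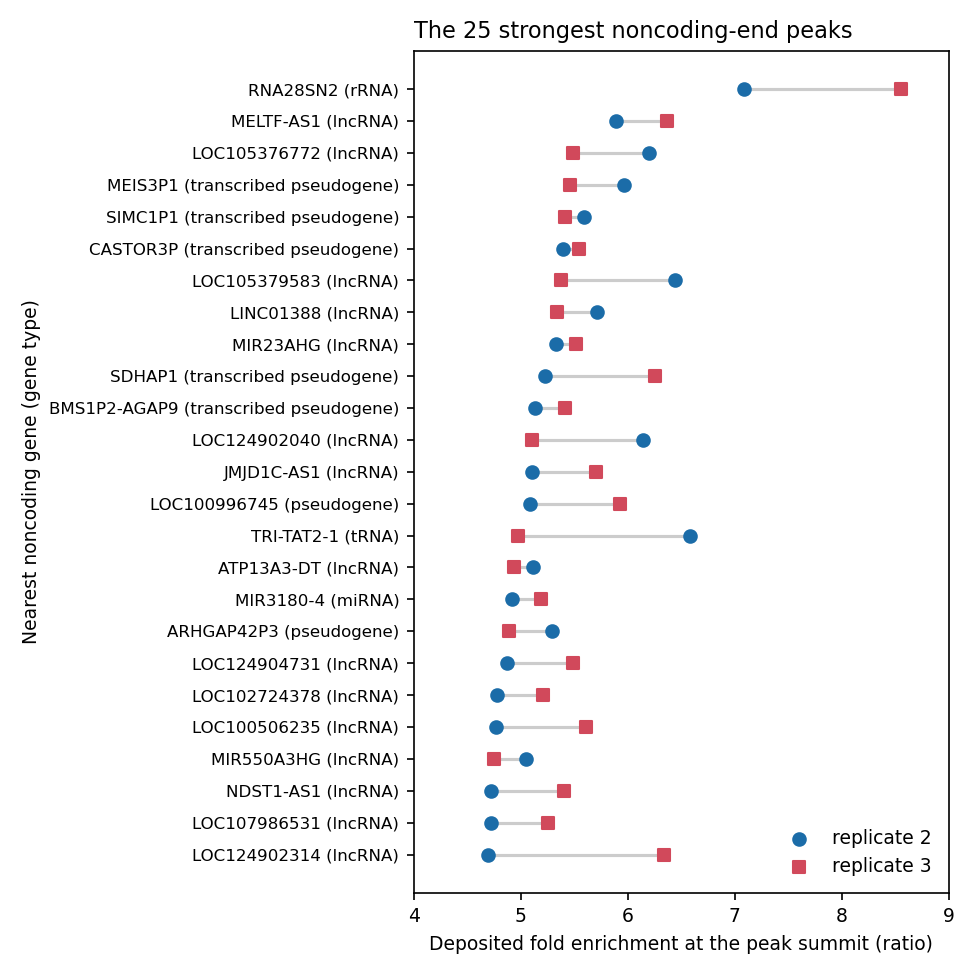
Deposited fold enrichment (horizontal axis, ratio) in replicate 2 (blue circles) and replicate 3 (red squares) for the 25 strongest noncoding-end peaks, named by the nearest noncoding gene with its type. RNA28SN2 leads in both libraries, and all 25 lie at 4.69 or higher in both.

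The strongest peak lay between RNA5-8SN2 and RNA28SN2, genes of the 5.8S and 28S ribosomal RNAs, at chr21:8213260-8213385. Its fold was 7.09 in replicate 2 and 8.55 in replicate 3, from 32 and 37 fragments over backgrounds of 2.97 and 2.88. These backgrounds equal the lowest of any member in each library, and a low background raises the fold. Ribosomal RNA genes stand in many near-identical copies, and how the authors placed reads that match several copies is not given in the sources used here, so this value is uncertain.

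MELTF-AS1, an lncRNA antisense to the melanotransferrin gene MELTF, had the strongest lncRNA peak, at chr3:197002891-197003569. Its fold was 5.89 in replicate 2 and 6.37 in replicate 3, from 32 and 33 fragments, with the summits 10 bp apart. MELTF had a shared peak of its own at one of its ends, 1 of 16 such partners described below. The unnamed lncRNA LOC105379583 near the end of chromosome 7 reached a −log10 q of 17.2 in replicate 2, the highest of any member there, with 9.79 in replicate 3. Its folds were 6.44 and 5.38, from 52 and 36 fragments.

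Other named lncRNA genes among the 25 were LINC01388 (folds of 5.71 in replicate 2 and 5.34 in replicate 3), JMJD1C-AS1 (5.10 and 5.70), ATP13A3-DT (5.11 and 4.94), NDST1-AS1 (4.72 and 5.40) and MIR550A3HG (5.05 and 4.75). JMJD1C-AS1 lies inside JMJD1C, a gene for a histone demethylase family protein, and ATP13A3-DT is named as a divergent transcript of ATP13A3, a polyamine transporter gene. The 2 summits lay inside these protein-coding genes, 55848 bp from the nearer end of JMJD1C and 7459 bp from that of ATP13A3. Neither of the 2 genes had a shared peak within 1 kb of its own ends.

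Of 44 listed microRNA host genes 5 had a noncoding-end peak (11.4%, against 1.67% of all lncRNA genes and 1.09% of all noncoding genes), and 9 (20.5%, against 5.80% and 3.26%) had any shared peak. These are the genes whose RNA is cut to release microRNAs. MIR23AHG, source of miR-23a, miR-27a and miR-24-2, had folds of 5.33 in replicate 2 and 5.52 in replicate 3, from 32 and 31 fragments, at chr19:13842429-13842952. It was the strongest of the 5, and its 2 libraries placed the summit 34 bp apart, 308 bp after the start. The first of its microRNA sequences, miR-23a-5p, began 5959 bp from the summit.

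MIRLET7A1HG, source of let-7a, let-7f and let-7d, microRNAs known to repress growth genes, had folds of 4.73 in replicate 2 and 4.23 in replicate 3, from 36 and 30 fragments. Its summit stood 35 bp after the start and 9669 bp from let-7a-5p. A further let-7 gene of the same seed, MIRLET7I, had a member 454 bp from its nearer end, with folds of 3.17 and 3.27 from 27 and 26 fragments. That peak also lay at LINC01465 and MIRLET7IHG.

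MIR17HG, which carries the growth-promoting miR-17 to miR-92a cluster, had a fold of 3.75 in replicate 2 from 18 fragments and of 5.07 in replicate 3 from 28 fragments. Its −log10 q stood at 2.74 in replicate 2, against 7.08 in replicate 3, so the libraries differed in strength, and the summit lay 2554 bp before miR-17-5p. MIR34AHG, host of miR-34a, a microRNA known to be induced by p53, had folds of 3.93 and 4.39 from 22 and 23 fragments, with the summit 687 bp before its start. The same peak lay 821 bp inside LNCTAM34A, which runs the other way. MIR34AHG was also the 1 gene of 18 on the list of p53-linked noncoding genes with a noncoding-end peak or any shared peak. That is 5.56%, from a single gene, against 1.09% of all noncoding genes with a noncoding-end peak and 3.26% with any shared peak. MIR663AHG and the microRNA gene MIR663A inside it shared a peak with folds of 3.56 and 3.37 from 19 and 17 fragments.

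MicroRNA genes with a member at their own end numbered 24, and mature sequences were given for 22 of them. The highest ranked was MIR3180-4, a gene with near-identical copies, with folds of 4.92 in replicate 2 and 5.19 in replicate 3. Among peaks whose nearest noncoding gene is a microRNA, MIR3190 (4.27 and 5.88), MIR6743 (4.47 and 4.20), MIR152 (4.10 and 4.52) and MIR4492 (5.21 and 4.08) came next. MIR4466 (4.50 and 4.70) and MIR1302-3 (4.32 and 5.23) ranked above these 4, at peaks nearer to another noncoding gene. MIR132 and MIR212, which share a seed and lie close together, shared 1 peak with folds of 3.40 and 3.06 from 18 and 20 fragments. MIR92B shared a peak with THBS3-AS1, with folds of 4.01 and 3.87. On the list of 59 proliferation- and cancer-linked microRNA genes 2 had a member (3.39%, against 1.26% of all microRNA genes), MIRLET7I and MIR663A.

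Of 54 noncoding genes on the list of cancer-associated lncRNAs 6 had a noncoding-end peak (11.1%, against 1.67% of all lncRNA genes), and 9 (16.7%, against 5.80%) had any shared peak. These lists and the choice of members were made with earlier results of these data known, so the counts describe them and support nothing further. NORAD, an abundant lncRNA that binds Pumilio proteins, had 34 fragments in each library. Its local background was 5.00 in replicate 2 and 9.0 in replicate 3, and its fold was 4.97 and 3.05. The fragment counts were thus equal, while the local backgrounds, each worked back at that library's own summit, were not. The reason for that difference was not tested.

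DANCR, an lncRNA that hosts the snoRNA SNORA26 and is known for keeping progenitor cells undifferentiated, had 80 fragments in replicate 2 and 57 in replicate 3. Local background was also high there, at 21.0 and 16.0, and the folds were 3.13 and 2.97. MIR4449 and SNORA26 also have an end within 1 kb of this summit.

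DLEU2 and DLEU1 lie at a locus often deleted in chronic lymphocytic leukaemia, and DLEU2 hosts miR-15a and miR-16-1. The DLEU2 member had folds of 3.89 and 4.49 in replicates 2 and 3 from 30 and 33 fragments, 509 bp after its first start and 75844 bp from miR-15a-5p. The DLEU1 member had folds of 3.56 and 3.17 from 31 and 28 fragments, and it lay 475 bp after another annotated start of DLEU2. HEIH, an lncRNA named for its high level in hepatocellular carcinoma, had folds of 3.20 and 3.0 from 29 and 23 fragments. ZEB1-AS1, antisense to a driver of epithelial-to-mesenchymal transition, had 3.21 and 3.33 from 18 fragments in each library.

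Of 33 snoRNA host genes 2 had a member (6.06%, against 1.67% of all lncRNA genes), DANCR and SNHG25, and 4 (12.1%, against 5.80%) had any shared peak. In RefSeq, SNORD104 lies inside SNHG25 and SNORA50C just beside it. SNHG25 had folds of 4.20 in replicate 2 and 3.82 in replicate 3 from 24 and 22 fragments. None of 28 liver-enriched noncoding genes had a noncoding-end peak, and 1, SLC2A1-DT, had a shared peak at a protein-coding end. None of 20 spliceosomal and histone-processing snRNA genes read by RNA polymerase II had a member, and RNU7-1 had a shared peak at a protein-coding end. Of all noncoding genes, 1.09% had a member and 3.26% any shared peak.

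Among markers of hepatocytes, 2 of 12 protein-coding genes, APOB and CEBPA, had a shared peak within 1 kb, where 19.2% of all protein-coding genes had one. The count was 0 of 4 for noncoding markers (MIR122, MIR122HG, HULC and H19), where 3.26% of all noncoding genes had one. A peak list does not measure expression, so the cell line could not be checked from these markers.

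Among 21 genes read by RNA polymerase III other than tRNAs, 2 had members (9.52%, against 1.09% of all noncoding genes), the U6 snRNA genes RNU6-7 and RNU6-8 on chromosome 14, and 4 (19%, against 3.26%) had any shared peak. These members had high fragment counts and low folds. The 2 RNU6-7 peaks had 118 and 113 fragments in replicate 2 and 121 and 134 in replicate 3, with folds of 1.76 and 1.70 in replicate 2 and of 1.86 and 2.14 in replicate 3. RNU6-8 had 133 and 129 fragments and folds of 2.0 and 2.02. Local background at these 3 peaks was 53.8 to 56.4, over 10 times the median of all members, 5.04 and 5.00. A further U6 gene, RNU6-9, had a shared peak at a protein-coding end with 28 fragments in each library and folds of 4.47 and 4.59, and the RMRP peak, also at a protein-coding end, had folds of 2.88 and 3.84.

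tRNA genes had higher folds. TRI-TAT2-1, an isoleucine tRNA gene, had folds of 6.58 in replicate 2 and 4.97 in replicate 3 from 32 and 22 fragments. The next were TRW-CCA2-1 (4.64 and 4.28), TRR-TCT2-1 (4.26 and 5.09), TRG-TCC4-1 (4.20 and 5.09) and TRT-CGT2-1 (4.49 and 4.16), for tryptophan, arginine, glycine and threonine. The 10 peaks nearest a tRNA gene had median folds of 4.12 and 4.30. The lowest −log10 q of replicate 3, 1.38, was shared by 3 members, at TRE-TTC1-2, TRT-AGT1-3 and LOC124902190. In replicate 2 their −log10 q was 3.01 at TRE-TTC1-2 and 4.44 at the other two.

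Local background of at least 15 in both libraries was found at 12 of the 400 peaks, all of them in the lower part of the ranking. Besides the U6 peaks and DANCR these were LINC02739, DUX4L34, 3 peaks at FAM86C2P, 2 at LOC100130987 and 1 at RNA45SN2. Their median folds were 2.36 in replicate 2 and 2.82 in replicate 3. RNA45SN2, the precursor of the ribosomal RNAs, had the lowest fold of all members, 1.46 and 1.45, from the most fragments, 183 and 174, over backgrounds of 106 and 104. It stood 6685 bp from the summit of the strongest member, so the ribosomal RNA locus held both the highest and the lowest fold.

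The 42 peaks nearest a transcribed pseudogene had median folds of 3.72 in replicate 2 and 4.01 in replicate 3, and the 26 nearest another pseudogene had 3.26 and 4.01. SDHAP1, a transcribed copy of the succinate dehydrogenase gene SDHA, had folds of 5.23 in replicate 2 and 6.25 in replicate 3 from 42 fragments in each library. MEIS3P1 (5.96 and 5.46), SIMC1P1 (5.59 and 5.41), CASTOR3P (5.39 and 5.54) and BMS1P2-AGAP9 (5.13 and 5.41) also stood among the 25 strongest. Among other pseudogenes that were the noncoding gene nearest to a peak, the highest were LOC100996745 (5.09 and 5.93), ARHGAP42P3 (5.29 and 4.89), IQSEC3P1 (4.61 and 4.61), DUX4L44 (4.51 and 4.21) and NFE2L3P2 (4.15 and 4.90). The pseudogene PKD1P6 shares the MIR3180-4 peak (4.92 and 5.19). WASH2P had the highest −log10 q of any member in replicate 3, 17.4, with 13.5 in replicate 2, from 65 fragments in each. BMS1P20 had the lowest in replicate 2, 1.48, with 2.62 in replicate 3.

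Reads from a pseudogene and from its parent gene can be hard to tell apart. For 32 of 53 pseudogenes a protein-coding parent could be matched by name, and 12 of these parents (37.5%) had a shared peak at their own ends, against 19.2% of all protein-coding genes. The part of shared reads in these peaks was not tested, and values at pseudogenes are uncertain for this reason.

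Antisense genes were a large named group, with 76 genes and 83 members. Where the partner could be matched, 65 of 80 summits lay inside it, and the median distance to its nearer end was 6268 bp. Of the 73 protein-coding partners 16 (21.9%) had a shared peak at their own ends, close to the 19.2% of all protein-coding genes. Divergent transcripts, named as starting beside a protein-coding gene and running the other way, numbered 18. Of their 18 summits 15 lay inside the partner, and the median distance to its nearer end was 1376 bp. Of the 18 partners of divergent transcripts 7 (38.9%) had a shared peak at their own ends.

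Many noncoding-end peaks were not far from protein-coding genes in spite of the rule. The summit lay inside a protein-coding gene for 210 of the 400 (52.5%), inside a noncoding gene within 1 kb for 190, and inside neither for 68. The nearest protein-coding end was 1 to 2 kb away for 84, 2 to 5 kb for 66, 5 to 50 kb for 177 and over 50 kb for 73. Peaks 1 to 2 kb from a protein-coding end had median folds of 3.78 in replicate 2 and 4.02 in replicate 3, and those farther away had 3.76 and 3.93.

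PPP4R1-AS1, LOC105376146, LOC729870 and FAM86C2P held 3 members each, the most of any gene. Those of PPP4R1-AS1 had folds between 2.66 and 4.28 in replicate 2 and between 3.37 and 4.16 in replicate 3. The LOC729870 peaks had 3.42 to 4.84 and 3.99 to 4.59, and the LOC105376146 peaks 3.37 to 4.05 and 3.92 to 4.83. At LOC105376146, 2 of the 3 members had the same replicate 3 values, a fold of 4.83 from 32 fragments. The 3 members there therefore need not be 3 separate replicate 3 peaks. FAM86C2P peaks were weaker, with 2.14 to 2.63 and 2.74 to 2.98, over backgrounds of 16.2 to 24.0. In all 42 genes had 2 or more members.

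Members were spread over all 23 chromosomes searched. Chromosomes 20, 17 and 22 had the highest shares of noncoding genes with a member, 2.45% (23 of 938), 2.07% (32 of 1546) and 1.81% (16 of 882). The X chromosome had the lowest, 0.134% (2 of 1494, exact 95% interval 0.0162% to 0.483%). Protein-coding genes with any shared peak were likewise most frequent on chromosome 20, with 35.8%, and least frequent on X, with 2.59%. The number of copies of each chromosome in Huh7 cells was not analysed here.

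The 1 kb limits cut through a continuous range of distances. Just inside the noncoding limit stood IFITM9P at 999 bp (folds of 3.23 and 2.81), LOC124902152 at 998 bp (3.93 and 3.67) and LOC124904071 at 996 bp (3.17 and 3.93). Just outside it were LOC105370668 at 1001 bp (4.07 and 5.46), RASSF3-DT at 1007 bp (3.83 and 4.28) and TLX1NB at 1015 bp (3.76 and 4.29). At the protein-coding limit, LOC124904025 and LOC124902251 at 1002 bp (4.81 and 3.12, 4.97 and 4.20) and THBS3-AS1 at 1024 bp were kept. The peaks at ATXN1-AS1, 997 bp from ATXN1 (2.81 and 3.93), NRSN2-AS1, 993 bp from SOX12 (4.34 and 2.98), and LOC107985728, 988 bp from SAMD11 (4.52 and 4.16), were not.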

How the data were processed

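The tools named in the submitters' processing notes are MACS2 2.2.7.1, BWA and CASAVA 1.4, with the build GRCh38; their settings, filters and the control used for peak calling are not given in the sources used here. The authors deposited a peak list and a summit list per ChIP library. The deposited fold enrichment is a ratio at the summit, with a pseudocount of 1 by the format. The deposited −log10 p and −log10 q also belong to the summit. The deposited score is a rounded form of the −log10 q and was not used. The deposited summit offset gave each summit's position.

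Peaks elsewhere than chromosomes 1 to 22 and X were left out (41 in replicate 2 and 45 in replicate 3). The replicate 3 value is that of the overlapping peak of highest fold. Overlap counts from bedtools differed by 0. Gene ends came from the RefSeq GRCh38.p14 table; strand came from the promoter and microRNA tables, where given. Whole fragment counts and local background were worked back from fold and −log10 p. That step was added once the data had been seen: all peaks (100%) came within 0.001 of the deposited −log10 p, at scales of 0.848 and 0.869. The fold is the count times the scale, plus 1, over the background plus 1. Library totals were not used here. Shares have exact Clopper-Pearson 95% intervals, which cover counting error only. No p-value was computed, since 1 group of 2 libraries allows no comparison of conditions.

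Members and lists were chosen with earlier results of these data known. Named were the 25 members of highest lower fold, up to 5 of each other noncoding type, every listed gene with a member, genes with the most members, members at each limit and those of highest and lowest −log10 q; not all are reported here. Alternatives were other windows, thresholds, overlap rules and gene classes, and each library alone. The comparison with promoters over 1 kb from protein-coding ends was added after seeing the data. Computations used Python 3.11.15, numpy 2.4.6, pandas 2.3.3, SciPy 1.17.1 and matplotlib 3.10.9.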

Additional observations from a re-analysis of the deposited data

How the results depend on the processing

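Under 10 alternatives for 5 results, 32 values stayed within the limits set (1.5 times for counts, the exact 95% interval for shares, 1 SD between the libraries' medians for the median fold) and 18 moved. Windows of 500 bp and 5 kb moved none of the 5, but each was set at both limits at once, so some peaks left and others entered. The upper quartile of the members' distance to a noncoding end was 552 bp. A protein-coding end lay 1 to 2 kb away for 84 members and 2 to 5 kb for 66. The counts were thus alike while the peaks behind them changed. A −log10 q of at least 5 in both libraries left 81 peaks at 96 genes, 74.1% of them with an lncRNA end and a median fold of 4.47. A fold of at least 4 in both left 106 peaks at 122 genes, 69.8% with an lncRNA end and a median of 4.52; fewer peaks enter by construction. A reciprocal overlap of at least 50% left 240 peaks at 262 genes, and summits within 100 bp of any replicate 3 summit 219 peaks at 241 genes. Leaving out pseudogenes gave 6.02% of shared peaks and 91.9% with an lncRNA end. Starting from replicate 3 gave a median fold of 3.93, read in that library. Each library alone, with no sharing, gave 622 peaks without replicate 3 and 854 without replicate 2, at 629 and 847 genes. The share then ran between 7.45% and 7.56%, the lncRNA share between 75.6% and 75.8% and the median fold between 3.70 and 3.79.

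No paired analysis was possible because both libraries belong to 1 group. The lists hold only peaks past the threshold, and with a median of 27 fragments a single fold is imprecise; differences between the libraries were not tested per peak.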

Other observations

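A few further genes with noncoding-end peaks are given here as single values; they were picked by name after their values were seen and form no group. GATA2-AS1, antisense to the blood transcription factor gene GATA2, had folds of 4.32 in replicate 2 and 5.22 in replicate 3 from 27 and 32 fragments, with the summit 72 bp before its start. MYCNOS, antisense to MYCN, had 3.92 and 4.88 from 20 and 24 fragments, 32 bp before its start. CHASERR, an lncRNA next to the chromatin remodeller gene CHD2, had 2 members, with folds of 3.87 and 3.29 in replicate 2 that share 1 replicate 3 peak of 3.78. DGCR5, in the DiGeorge syndrome region, had 4.31 and 4.36 in replicates 2 and 3, PAUPAR, beside PAX6, had 2.75 and 3.99, and HYMAI, at an imprinted locus, had 3.79 and 2.75.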
